A study of Mus musculus with 150 samples.

Results

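The 10 genes described here carry out or control DNA replication licensing, the loading of the replicative helicase onto origins before a cell copies its genome. They were taken by symbol: the 6 subunits of the MCM helicase (Mcm2, Mcm3, Mcm4, Mcm5, Mcm6 and Mcm7), the loading factors Cdc6 and Cdt1, the Cdt1 inhibitor geminin (Gmnn) and the sliding clamp Pcna. All 10 were found among the 24341 genes of the bulk table and among the 31175 genes of the single-cell tables. The data are mouse lung epithelial cells of knockout and wild-type genotype for the tumour suppressor p53 (gene Trp53), and the study's design text asks about the behaviour of progenitor cells in the knockout and the wild type. The bulk set held 3 knockout libraries (replicates 7, 8 and 10, genotype label p53-/-, made from mice with the p53flox/flox alleles) and 3 wild-type libraries (replicates 1, 5 and 6, from p53+/+ mice). Both groups also carried Scgb1a1-CreERTM, an inducible Cre recombinase driven by the club cell gene Scgb1a1, and the fluorescent reporter Rosa26-mT/mG, were 8 to 12 weeks old, and received tamoxifen to activate the recombinase. The protocol places collection 70 days after tamoxifen, while the titles name day 30. Cells were sorted as GFP+, EpCAM+, CD31/34/45- and 7AAD-, so these libraries represent the cells in which the Scgb1a1 promoter had driven Cre. The single-cell set came from 1 Fluidigm C1 chip per genotype, a device that captures cells in separate chambers: of 64 knockout and 72 wild-type cells without a control, debris or valve remark, 61 and 66 had at least 1000 detected genes and were kept. For these the labels give p53-/- or wild type and a tamoxifen dose of 250 mg/kg, but leave unclear whether the deletion was full or floxed and whether the cells were fresh or cultured. The same protocol says that chips were used to capture cell-cycle fractions without naming the fraction of either chip, so a sort could set the shares of cells with replication genes and cannot be told apart from genotype.

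Licensing takes place in G1. The origin recognition complex, Cdc6 and Cdt1 place rings of the MCM2-7 helicase on origins, kinases fire these origins in S phase, and geminin then binds Cdt1 so that no origin is loaded again. Pcna encircles DNA behind the fork and holds the polymerases. Transcription of most of these genes is driven by E2F factors, which the retinoblastoma family restrains; p53 acts on this step through its target Cdkn1a, an inhibitor of cyclin-dependent kinases that keeps the retinoblastoma proteins active. Club cells of the mouse airway are long-lived secretory cells that divide rarely at rest and act as progenitors after injury.

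E2F factors bind short words in promoters, and 4 such words (TTTCCCGC, TTTCGCGC, TTTGCCGC and TTTGGCGC) were searched on both strands in the RefSeq promoter windows of the genes, which run from 250 bases before to 50 bases after each annotated start on GRCm38.p6. Windows were found for 8 of the 10 genes, 9 windows in all because Mcm7 has 2 starts, and 6 of the 9 held at least 1 word, against 2.26% of all 32851 windows of 300 bases. The 250 bases before the start are printed for 4 helicase genes so that their words can be compared. At the main detection limit used below, Mcm2 and Mcm7 differed most in proportion between the chips among the 6 helicase subunits. Mcm5 and Mcm6 differed least in proportion. That contrast depends on the limit, and a link between it and the words was not tested. Capitals mark the words, on either strand. The Mcm2 window is chr6:88898781-88899030 (minus strand), Mcm7 chr5:138171884-138172133 (minus strand), Mcm5 chr8:75109259-75109508 (plus strand) and Mcm6 chr1:128359706-128359955 (minus strand).
Mcm2: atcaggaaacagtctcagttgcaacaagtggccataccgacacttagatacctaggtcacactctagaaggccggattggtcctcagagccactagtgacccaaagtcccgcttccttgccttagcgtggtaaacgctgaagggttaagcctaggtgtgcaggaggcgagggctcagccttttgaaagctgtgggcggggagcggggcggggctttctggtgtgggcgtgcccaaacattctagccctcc
Mcm7: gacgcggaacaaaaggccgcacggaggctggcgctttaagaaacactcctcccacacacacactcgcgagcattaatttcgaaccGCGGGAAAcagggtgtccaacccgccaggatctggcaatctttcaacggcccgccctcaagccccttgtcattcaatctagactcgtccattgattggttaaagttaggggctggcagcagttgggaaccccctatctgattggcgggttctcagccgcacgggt
Mcm5: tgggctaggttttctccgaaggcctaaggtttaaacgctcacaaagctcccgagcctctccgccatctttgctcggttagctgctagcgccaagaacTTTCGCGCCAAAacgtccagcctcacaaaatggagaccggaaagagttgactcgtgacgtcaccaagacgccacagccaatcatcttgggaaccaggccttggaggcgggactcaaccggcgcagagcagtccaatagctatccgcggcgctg
Mcm6: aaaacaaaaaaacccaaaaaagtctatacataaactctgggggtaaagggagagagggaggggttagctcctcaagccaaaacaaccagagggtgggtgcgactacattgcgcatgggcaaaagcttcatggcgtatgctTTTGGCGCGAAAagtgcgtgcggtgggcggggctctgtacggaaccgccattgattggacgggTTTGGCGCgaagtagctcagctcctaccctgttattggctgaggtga
The Mcm6 sequence holds 3 words, 2 of which overlap on opposite strands in a single capital run. The Mcm5 sequence holds 2 that overlap in the same way. The Mcm7 sequence holds 1, with another that lies after its start and is not printed, and the Mcm2 sequence holds none of these words. Only 1 of the 2 starts of Mcm7 is printed. The window of its other start, with chr5:138171267-138171516 before it, held 0 words. Mcm3 had 2 words and Cdt1 had 1, all after the start, Cdc6 had 1 before it, and Pcna had none. A word is a description of the letters and says nothing about binding in these cells.

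In bulk, none of the licensing genes differed between knockout and wild-type libraries beyond the spread of the replicates. Values are FPKM, fragment numbers scaled by transcript length and library size, so levels can be compared between genes. Geminin and Pcna stood highest, the MCM subunits followed, and Cdt1 and Cdc6 were lowest. Of the 10 genes, 9 reached an FPKM of 1 in 3 or more of the 6 libraries and were tested with limma on log2(FPKM + 1). None of the 9 passed an adjusted p of 0.05, where the share over all 11957 tested genes was 0.00836%, and none had an unadjusted p under 0.05, where that share was 13.1%. In none of the 9 did the knockout libraries all lie above or all below the wild-type libraries, against 19.3% of all tested genes, 9.04% above and 10.2% below. Their log2 differences, knockout minus wild type, ran between -0.11 and 0.17 with a median of -0.0033, beside a median of 0.0078 over all tested genes. A bulk level cannot tell fewer cells with a transcript from less transcript per cell.

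Of the loading factors, Cdc6 (chr11:98907889-98923942, plus strand, mm10), an ATPase that joins the origin recognition complex to load the helicase, had 0.300, 0.225 and 0.1804 FPKM in knockout replicates 7, 8 and 10, against 0.169, 0.451 and 0.331 FPKM in wild-type replicates 1, 5 and 6. It stayed below the filter and was not tested. Cdt1 (chr8:122568015-122573130, plus strand), which escorts the helicase to the origin, had 1.92, 2.08 and 2.04 FPKM in knockout libraries, against 2.38, 1.94 and 1.98 FPKM in wild-type libraries. The groups overlapped, with the highest value in wild-type replicate 1. Cdt1 lies within the much longer protein-coding gene model Gm20388 on the same strand, so reads may be shared. The limma difference was -0.037 (SE 0.126, adjusted p = 0.933).

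Gmnn (chr13:24751845-24761937, minus strand), the inhibitor of Cdt1, was the most abundant of the 10 and, among the 9 tested genes, had the widest ratio of highest to lowest library. It had 54.5, 72.03 and 94.8 FPKM in knockout libraries, against 41.2, 102 and 92.9 FPKM in wild-type libraries. Wild-type replicate 1 was the lowest of the 6 libraries and wild-type replicate 5 the highest, so the wild-type values enclosed all knockout values. The difference was -0.022 on the log2 scale (SE 0.366, limma adjusted p = 0.988), with a 95% interval of -0.89 to 0.85. That interval is the widest among the tested members and does not bound a change of 1.5-fold in either direction. Without wild-type replicate 1 the difference was -0.43 and still did not pass.

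The helicase subunits work as a ring of equal parts but were not expressed at equal levels. Mcm6, Mcm7 and Mcm4 were highest, with means over the 6 libraries of 14.8, 10.4 and 8.81 FPKM. Mcm2 followed at 5.41 FPKM, and Mcm5 and Mcm3 were lowest at 3.24 and 2.69 FPKM. In this order the ranges of Mcm7 and Mcm4 overlapped, as did those of Mcm5 and Mcm3, while the other neighbours did not overlap. Among the other genes, the ranges of Gmnn and Pcna overlapped, and so did those of Mcm3 and Cdt1.

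Mcm6 (chr1:128331591-128359656, minus strand) had 14.2, 13.1 and 15.8 FPKM in knockout libraries, against 15.9, 13.1 and 16.8 FPKM in wild-type libraries. Mcm7 (chr5:138164589-138171862, minus strand) had 9.93, 9.72 and 11.7 FPKM in knockout libraries, against 9.94, 10.6 and 10.8 FPKM in wild-type libraries. In both genes the knockout and wild-type values interleaved, and the log2 differences were -0.081 (SE 0.125) for Mcm6 and -0.0033 (SE 0.104) for Mcm7, with limma adjusted p-values of 0.834 and 0.992. Mcm7 overlaps Cops6 and Ap4m1 on the opposite strand and 3 microRNA genes on its own, and the counting is not stated to use strand, so reads of these neighbours may be included. Mcm4 (chr16:15623897-15637400, minus strand), which with Mcm6 and Mcm7 forms the core of the helicase motor, had 10.1, 8.33 and 9.09 FPKM in knockout libraries, against 7.53, 9.45 and 8.40 FPKM in wild-type libraries. Its difference was 0.11 (SE 0.120, limma adjusted p = 0.763).

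Mcm2 (chr6:88883474-88898780, minus strand), which in yeast forms the gate of the ring with Mcm5, had 5.28, 4.21 and 6.86 FPKM in knockout libraries, against 5.74, 5.08 and 5.27 FPKM in wild-type libraries. Mcm5 (chr8:75109509-75128439, plus strand) had 3.21, 3.14 and 3.40 FPKM in knockout libraries, against 2.65, 3.02 and 4.03 FPKM in wild-type libraries. For Mcm2 the knockout values lay on both sides of all wild-type values, and for Mcm5 the wild-type values lay on both sides of all knockout values. Mcm3 (chr1:20803014-20820213, minus strand), the subunit that in yeast contacts the loader at the origin, had 2.19, 1.69 and 3.96 FPKM in knockout libraries, against 2.41, 2.96 and 2.93 FPKM in wild-type libraries. Its knockout libraries held both the highest and the lowest value. The log2 differences of the 3 genes were 0.00026 (SE 0.165), 0.019 (SE 0.151) and -0.11 (SE 0.235) in the order Mcm2, Mcm5, Mcm3, with limma adjusted p-values of 0.9997, 0.972 and 0.891.

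Pcna (chr2:132249286-132253180, minus strand) had the smallest p of the 9. It had 42.9, 46.8 and 46.2 FPKM in knockout libraries (45.3 ± 2.12, SD, n = 3), against 32.7, 42.9 and 45.8 FPKM in wild-type libraries (40.5 ± 6.85, SD, n = 3). Only wild-type replicate 1 stood clearly below the rest. The difference of 0.17 (SE 0.138, 95% interval -0.16 to 0.50) had a limma adjusted p of 0.641, and without wild-type replicate 1 it was 0.030.

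**Figure D1:**
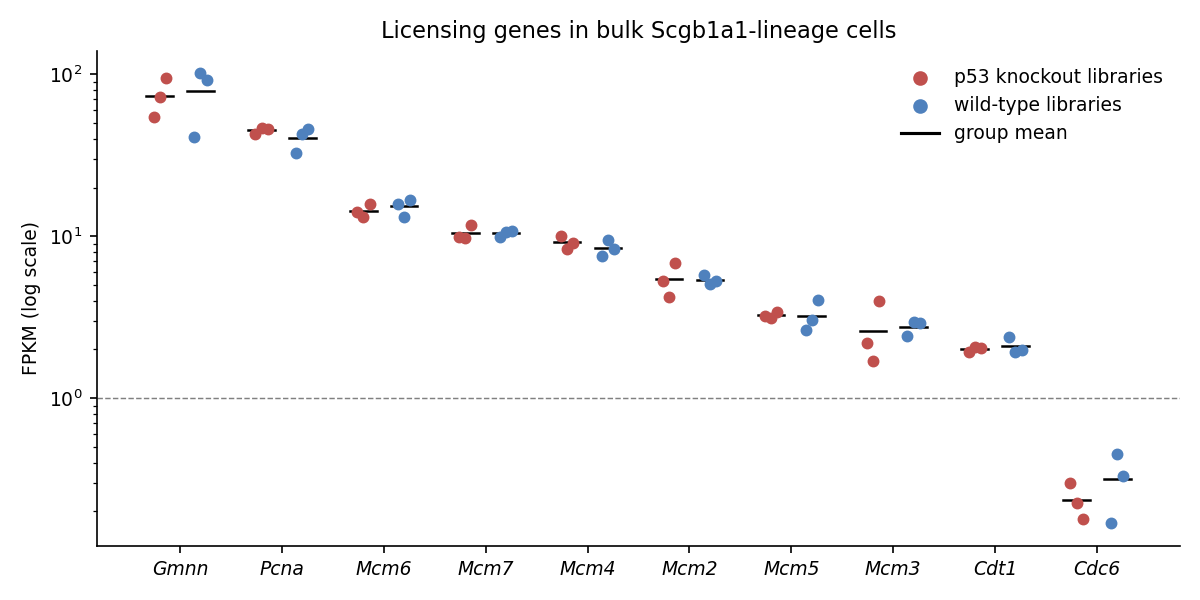
FPKM of the 10 licensing genes on a log axis in 3 knockout libraries (red) and 3 wild-type libraries (blue), with black lines for group means and a dashed line at an FPKM of 1. The genes span levels from 76.2 FPKM for Gmnn to 0.276 FPKM for Cdc6 as means over all libraries, and the points of the 2 genotypes overlap for each gene.

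Libraries of the same genotype differed from each other. The column header of wild-type replicate 6 lacks a prefix that the other 5 carry, and the meaning of this prefix was not given. The mean standardised level of the 9 tested genes was 0.82 in knockout replicate 10, -0.22 in knockout replicate 7 and -0.54 in knockout replicate 8. It was -0.48 in wild-type replicate 1, -0.026 in wild-type replicate 5 and 0.44 in wild-type replicate 6. The knockout group thus held both the highest and the lowest library. Wild-type replicate 1 also stood apart in cell markers. Its summed FPKM of 8 of the 10 club cell markers was 32711, against 70718 to 101781 in the other 5 libraries. That of 8 of the 11 alveolar type 2 markers was 12156, against 6221 to 8018. The other listed markers of these types had no value in all 6 libraries and were left out. Trp53 itself had 8.63, 9.98 and 7.56 FPKM in knockout libraries, against 16.6, 22.2 and 21.7 FPKM in wild-type libraries, with no overlap. Its difference was -1.12 (SE 0.149, limma adjusted p = 0.144), and without wild-type replicate 1 it was -1.25 with an adjusted p of 0.00982. In that fit 408 genes passed, against 1 with all libraries, and 0 of the licensing genes passed in either.

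No gene of the wider replication programme passed in bulk either. Only 1 of all 11957 tested genes passed (0.00836%), so a count of 0 says little about a list. Unadjusted limma p-values under 0.05 are therefore also counted, beside 13.1% of all tested genes. Among 18 genes of origin recognition and firing, 11 were tested and 0 passed, 6 with a positive and 5 with a negative difference and a median of 0.015. Of these 11, 0 had an unadjusted p under 0.05. Orc2 and Orc6, subunits of the origin recognition complex, had differences of 0.20 and 0.39 (limma adjusted p-values 0.438 and 0.449). Among 28 genes of the fork and of nucleotide supply, 25 were tested and 0 passed, with a median of -0.029. An unadjusted p under 0.05 was reached by 2 that were higher and 1 that was lower in knockout libraries. The chromatin assembly factor subunit Chaf1a averaged 2.68 ± 0.280 FPKM in knockout libraries and 1.68 ± 0.358 FPKM in wild-type libraries (SD, n = 3 each), and the clamp loader subunit Rfc2 averaged 33.6 ± 4.27 FPKM and 25.4 ± 2.51 FPKM in the same order. Their adjusted p-values in limma were 0.328 and 0.330. The polymerase delta catalytic subunit Pold1 averaged 5.00 ± 0.231 FPKM in knockout libraries and 6.47 ± 0.803 FPKM in wild-type libraries (limma adjusted p = 0.357).

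Upstream of licensing, 17 of 23 genes of G1 control and the E2F family were tested and 0 passed. An unadjusted limma p under 0.05 was reached by 1 that was higher and 2 that were lower in knockout libraries. Cdkn1a had 19.6, 21.3 and 18.0 FPKM in knockout libraries, against 37.6, 40.02 and 63.9 FPKM in wild-type libraries, with no overlap. Its difference of -1.18 (SE 0.203) had a limma adjusted p of 0.203. Cdkn1c, another kinase inhibitor, averaged 33.5 ± 4.19 FPKM in knockout libraries and 21.4 ± 1.03 FPKM in wild-type libraries (SD, n = 3 each, limma adjusted p = 0.209). Downstream, 12 of 20 mitotic genes were tested and 0 passed, and 0 had an unadjusted limma p under 0.05. A positive difference was seen for 9 of the 12, and the median was 0.25. Ccnb1, the mitotic cyclin B1, averaged 2.88 ± 0.576 FPKM in knockout libraries and 1.69 ± 0.768 FPKM in wild-type libraries (SD, n = 3 each, limma adjusted p = 0.393).

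Geminin has relatives, Mcidas and Gmnc, that switch on the multiciliated programme in place of cell division. Of 8 genes of this family, its partners and the MCM relatives, 8 were tested and 0 passed, with a median of 0.10. Only 1 of them, Myb, had an unadjusted limma p under 0.05. Myb, a transcription factor active in early multiciliated cells and in cycling cells, had 6.68, 8.10 and 6.87 FPKM in knockout libraries, against 5.33, 2.18 and 2.33 FPKM in wild-type libraries (limma adjusted p = 0.308). The summed FPKM of 10 ciliated cell markers was 492 to 876 in knockout libraries and 144 to 539 in wild-type libraries, and that of 7 immune markers was 19.5 to 30.2 and 41.8 to 58.6 in the same order. Basal cell markers were below an FPKM of 1 in all 6 libraries. The part of these other cells in the values of the licensing genes was not tested.

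In the single cells, licensing genes were detected in a larger share of cells on the knockout chip, and more of them together in the same cell. With 1 chip per genotype this is a comparison of 2 chips with no test, and intervals (exact Clopper-Pearson, 95%) cover counting error only. A gene counted as detected at a TPM (a transcript level scaled by length and library size) of at least 1. The chips also differed in depth: the median number of detected genes per cell was 3580 on the knockout chip and 3130.5 on the wild-type chip, and the median share of TPM in the 92 ERCC spike-ins was 6.28% and 13.2% in the same order. Read depth itself is not known from TPM. Trp53 was detected in 16 of 61 cells labelled knockout and 4 of 66 labelled wild type. This is opposite in direction to bulk, where Trp53 was lower in knockout libraries but still present. Cdkn1a was detected in 19 of 61 and 31 of 66 cells in the same order, the direction seen in bulk. Whether the labels hold was not tested, so the directions below are those of the labelled chips.

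All 10 licensing genes were detected in a larger share of cells on the chip labelled knockout, where 75.0% of all 13010 genes seen in at least 4 cells were also higher, and 73.4% of those seen in no more than 63 of the 127 cells. For Mcm2, Mcm7, Cdt1 and Cdc6 the share was 2 or more times as high. The background was 17.9% of genes seen in at least 4 cells, and 20.7% of those seen in no more than 63. Cdt1 rests on 6 cells against 1 and Cdc6 on 3 against 1, where such ratios arise easily. The median difference of the 10 shares was 7.86 percentage points, beside 4.02 and 3.63 points over the same 2 gene sets.

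Pcna was the most widely detected, in 35 of 61 cells on the knockout chip (57.4%, interval 44.1 to 70.0) and 22 of 66 cells on the wild-type chip (33.3%, interval 22.2 to 46.01). Where it was detected, its median was 67.3 TPM in cells labelled knockout and 18.2 TPM in wild-type cells. The processed pseudogene Pcna-ps2, whose reads may be shared with Pcna, was detected in 3 and 3 cells with a highest value of 6.64 TPM. Gmnn was detected in 30 of 61 cells (49.2%, interval 36.1 to 62.3) on the knockout chip and 18 of 66 cells (27.3%, interval 17.03 to 39.6) on the wild-type chip. Its median among positive cells ran the other way, 86.2 TPM in cells labelled knockout and 121 TPM in wild-type cells. The intervals of the shares overlapped for both genes.

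At the TPM limit of 1, some helicase subunits were detected more evenly on the chips than others. The split depends on that limit. At a TPM of at least 10, Mcm4 was in 9.84% of cells on the knockout chip and 1.52% on the wild-type chip. In the same order Mcm6 was in 11.5% and 4.55%, and Mcm5 in 6.56% and 3.03%. The counts that follow are at the limit of 1. Mcm7 was found in 12 of 61 cells on the knockout chip (19.7%, interval 10.6 to 31.8) and 1 of 66 cells on the wild-type chip (1.52%, interval 0.0384 to 8.16). Mcm2 was found in 7 of 61 cells on the knockout chip (11.5%, interval 4.74 to 22.2) and 0 of 66 on the wild-type chip. That 0 allows a share of up to 4.55% by the limit of 3 cells, or 5.44% by the exact interval. The exact intervals of Mcm7 did not overlap, and those of Mcm2 did. Mcm5 was found in 23 cells labelled knockout and 20 wild-type cells, Mcm6 in 12 and 10, Mcm4 in 12 and 9, and Mcm3 in 5 and 3, in that order. Detection of Mcm5 was weak, with medians among positive cells of 3.36 TPM on the knockout chip and 3.01 TPM on the wild-type chip. Counting any TPM above 0 its direction turned, with 73.8% of cells on the knockout chip and 78.8% on the wild-type chip. For Mcm6 the positive cells had medians of 30.8 TPM on the knockout chip and 4.95 TPM on the wild-type chip, and for Mcm4 15.1 and 3.11 TPM.

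The loading factors were rare. Cdt1 was detected in 6 of 61 cells on the knockout chip (9.84%, interval 3.70 to 20.2) and 1 of 66 on the wild-type chip (1.52%, interval 0.0384 to 8.16). Cdc6 was detected in 3 and 1 cells in the same order. A cell with either factor was seen 8 times on the knockout chip and 2 times on the wild-type chip, and both together in 1 cell and 0 cells. Gmnn accompanied a loading factor in 5 of those 8 cells labelled knockout and in 0 of those 2 wild-type cells.

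**Figure D2:**
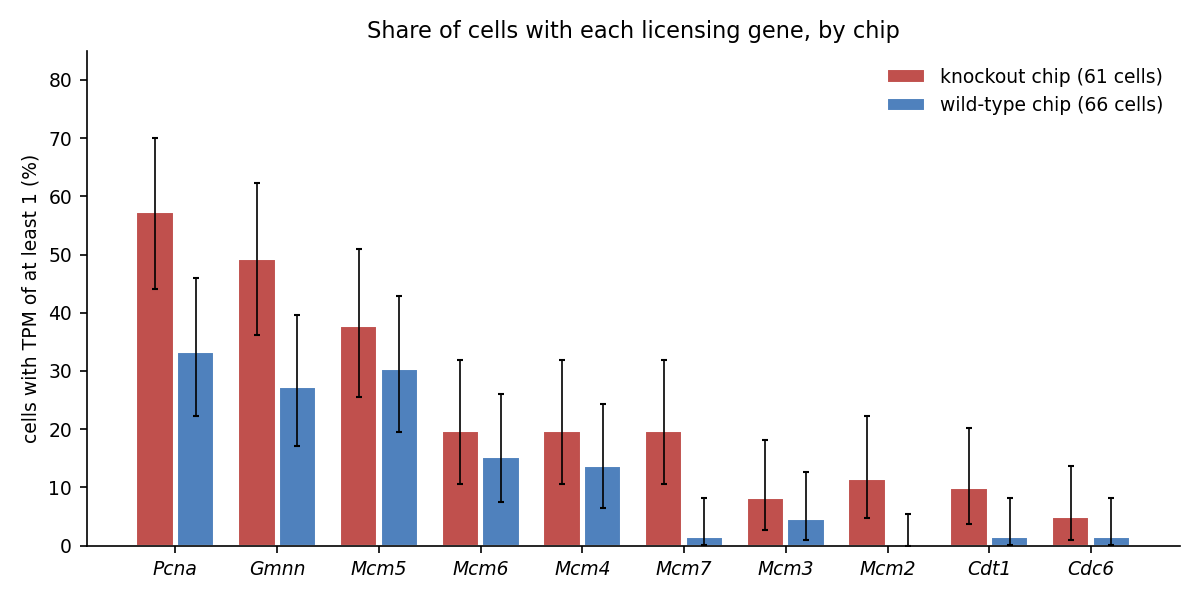
Percentage of cells with a TPM of at least 1 for each licensing gene, on the knockout chip (red, 61 cells) and the wild-type chip (blue, 66 cells), with exact 95% intervals for counting error. The red bar is the taller for each of the 10 genes, and the gap is widest in proportion for Mcm7 and Mcm2, the last with 0 wild-type cells.

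Most cells of either chip had at least 1 licensing gene, and the chips parted at 3 or more. At least 1 gene was detected in 51 of 61 cells on the knockout chip (83.6%, interval 71.9 to 91.8) and 50 of 66 on the wild-type chip (75.8%, interval 63.6 to 85.5). At least 3 were detected together in 26 of 61 cells (42.6%, interval 30.0 to 55.9) on the knockout chip and 5 of 66 (7.58%, interval 2.51 to 16.8) on the wild-type chip. At least 5 were detected in 8 cells labelled knockout and 0 wild-type cells, which for the wild-type chip allows a share of up to 4.55%. The median cell had 2 of the 10 genes on the knockout chip and 1 on the wild-type chip, and the highest numbers were 9 and 4. The means were 2.38 and 1.29 genes per cell. How many cells would reach 3 or more from the single-gene shares and depth alone was not computed. The counts therefore do not show that the genes occur together beyond those shares. At least 2 helicase subunits were found in 21 cells labelled knockout and 9 wild-type cells, and at least 3 in 9 and 0 cells. Pcna and Gmnn were found together in 19 cells labelled knockout and 6 wild-type cells.

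**Figure D3:**
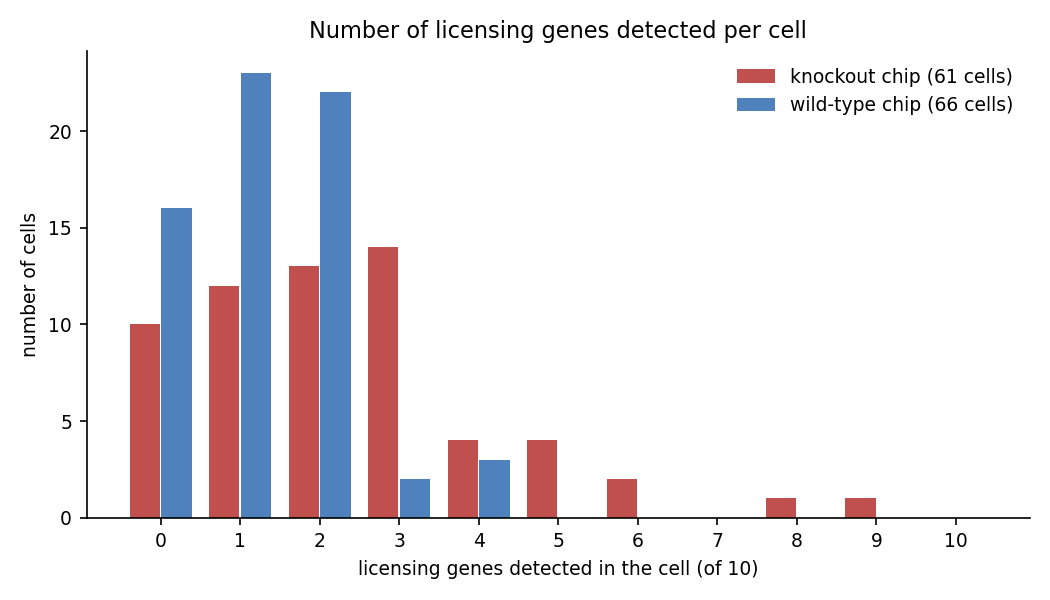
Number of cells (vertical axis) by how many of the 10 licensing genes were detected in them (horizontal axis), on the knockout chip (red, 61 cells) and the wild-type chip (blue, 66 cells). The wild-type cells end at 4 genes, while 8 cells labelled knockout lie at 5 or more.

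Cells with more detected genes of any kind also had more licensing genes. Across cells of 1 chip, which share a chip and differ in depth, Pearson's r between the numbers was 0.56 on the knockout chip (61 cells) and 0.28 on the wild-type chip (66 cells). Among cells with 2000 to 5000 detected genes, at least 3 licensing genes were found in 22 of 56 cells on the knockout chip (39.3%, interval 26.5 to 53.2) and 5 of 51 on the wild-type chip (9.80%, interval 3.26 to 21.4), with no overlap of the intervals. Among cells with 3000 to 4000, a range chosen after seeing the data, at least 3 licensing genes were found in 9 of 26 cells on the knockout chip (34.6%, interval 17.2 to 55.7) and 5 of 27 on the wild-type chip (18.5%, interval 6.30 to 38.1). In this narrower range the gap was smaller and the intervals overlapped. The range matches only the number of detected genes: the median ERCC share was still 7.56% on the knockout chip and 10.8% on the wild-type chip. There Mcm7 was detected in 5 of 26 and 1 of 27 cells, Gmnn in 13 and 8, and Pcna in 14 and 10, in the same order. Mcm2 was detected in 1 and 0 of them, and Mcm3, Mcm4 and Mcm5 were no longer higher on the knockout chip.

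**Figure D4:**
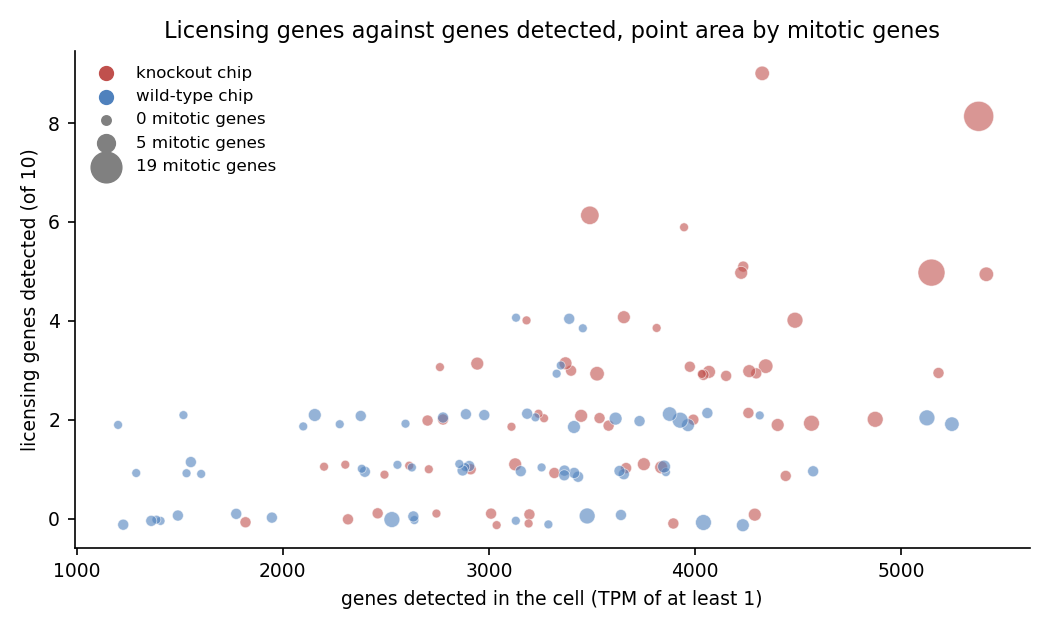
Licensing genes detected per cell (vertical axis, jittered) against all genes detected in the cell (horizontal axis), for cells on the knockout chip (red) and the wild-type chip (blue), with point area by the number of 20 mitotic genes detected. Cells with 5 or more licensing genes are all from the knockout chip and have at least 3489 detected genes, and the 2 largest points lie above 5000.

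The cells with the most licensing genes were not all alike. Cell 59 of the knockout chip had 9 of 10, with only Cdc6 under the detection limit, with 133 TPM of Mcm4, 231 TPM of Pcna and 72.99 TPM of Cdt1. It had 3 of the 20 mitotic genes, among them Cdk1 at 129 TPM, and Mki67 and Top2a were each at 0.05 TPM. Cell 38 of the knockout chip had 8, with 328 TPM of Mcm6 and 314 TPM of Mcm7, and no TPM of Cdt1 or Cdc6. It also had 19 of the 20 mitotic genes, with Mki67, the proliferation antigen, at 150 TPM and Top2a, the topoisomerase that untangles sister chromosomes, at 384 TPM. Cell 59 thus held the loading factor Cdt1 with few mitotic transcripts, and cell 38 held mitotic transcripts without a loading factor.

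Cell 36 of the knockout chip, in which Sftpc exceeded Scgb1a1, had 5 licensing genes and 15 mitotic genes, with 673 TPM of Rrm2, the ribonucleotide reductase subunit made in S phase, and no TPM of Gmnn. Cells 61 and 62 had 6 each: cell 61 had 153 TPM of Mcm3 and 32.5 TPM of Cdt1 with 0 mitotic genes, and cell 62 had 13.6 TPM of Cdc6 with 349 TPM of Cdk1 and 6 mitotic genes. Mki67, Top2a and Rrm2 were detected together in 2 cells, numbers 36 and 38, on the knockout chip and 0 on the wild-type chip. No wild-type cell had more than 4 mitotic genes. The 3 wild-type cells with 4 licensing genes, numbers 7, 31 and 52, each held Mcm5, Pcna and Gmnn, and they had 1, 0 and 0 mitotic genes. Cell 31 also had 24.4 TPM of Foxj1, the master factor of ciliated cells.

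On the knockout chip 26 cells had at least 3 licensing genes. The 3 cells of that chip with at least 5 of the 20 mitotic genes, numbers 36, 38 and 62, were among them. Most of the 26 thus held fewer than 5 mitotic genes. Across cells, Pearson's r between the numbers of licensing and mitotic genes was 0.52 on the knockout chip and -0.10 on the wild-type chip, with depth not accounted for. Of the list genes seen in at least 4 cells, 25 of 26 of the fork and of nucleotide supply were detected in a larger share of cells on the knockout chip, as were 9 of 12 of origin recognition and firing, 11 of 13 mitotic genes, 15 of 18 of G1 control and the E2F family, and 5 of 8 of the geminin family and MCM relatives, again beside a background of 75.0%. Rrm1, the other reductase subunit, was found in 12 cells labelled knockout and 2 wild-type cells, and Rrm2 in 6 and 0. The most widely detected genes of the lists were Pola2, a polymerase alpha subunit, in 60 cells labelled knockout and 61 wild-type cells, Cdkn1b, a kinase inhibitor, in 56 and 51, and Tyms, the thymidylate synthase, in 50 and 53. Cdkn1a was detected in 19 of 61 cells labelled knockout and 31 of 66 wild-type cells, and 11 of the 26 cells labelled knockout with at least 3 licensing genes also had Cdkn1a.

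By cell state, Gmnn was the licensing gene that differed most. Cells were split by whichever of Scgb1a1, the club cell secretoglobin, and Sftpc, the alveolar type 2 surfactant protein C, had the higher TPM, which gave 46 Scgb1a1-dominant and 15 Sftpc-dominant cells on the knockout chip, and 49 and 17 on the wild-type chip. This split compares 2 transcripts, and whether it separates cell types was not tested. Scgb1a1 was detected in all cells, and 3 cells labelled knockout and 1 wild-type cell had the transcripts within 2-fold of each other. Gmnn was detected in 28 of 46 Scgb1a1-dominant and 2 of 15 Sftpc-dominant cells on the knockout chip, and in 18 of 49 and 0 of 17 on the wild-type chip, where 0 allows up to 17.6%. Over both chips this came to 48.4% of Scgb1a1-dominant cells (interval 38.04 to 58.9) and 6.25% of Sftpc-dominant cells (interval 0.766 to 20.8), which do not overlap. Pcna differed less, at 47.4% (interval 37.0 to 57.9) and 37.5% (interval 21.1 to 56.3). Splitting instead by the other club and alveolar type 2 markers left Gmnn in 23 of 40 and 7 of 21 cells on the knockout chip, and in 18 of 45 and 0 of 21 on the wild-type chip. Under that split the intervals overlapped on the knockout chip, at 40.89 to 72.96 and 14.59 to 56.97. They did not overlap on the wild-type chip. The size of the Gmnn contrast on the knockout chip thus depends on the split.

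Of the 10 genes, 6 were higher in Scgb1a1-dominant cells on both chips, against 40.6% of genes seen in at least 4 cells, and 2 were 2 or more times as high on both, against 13.5%. The other of these 2 was Mcm3, with 5 of 46 and 3 of 49 Scgb1a1-dominant cells and 0 of 15 and 0 of 17 Sftpc-dominant cells on the knockout and wild-type chips. At least 3 licensing genes were found in 22 of 46 Scgb1a1-dominant and 4 of 15 Sftpc-dominant cells on the knockout chip, and in 5 of 49 and 0 of 17 on the wild-type chip. Depth moved with state as well, with medians of 3824 and 3196 detected genes on the knockout chip and 3154 and 2633 on the wild-type chip, Scgb1a1-dominant cells first. The median ERCC share was 5.68% and 15.4% on the knockout chip and 11.04% and 22.1% on the wild-type chip, in that order. The part of depth in the contrast between states was not tested. Of the marker lists of other types, 0 of 4 basal markers were detected on either chip. Of 10 ciliated markers, 9 were detected in some cell on the knockout chip and 8 on the wild-type chip, led by Tppp3 in 20 and 9 cells, while the defining factor Foxj1 was in 0 and 1. Of 7 immune markers 3 and 2 were detected, led by Cd68 in 9 and 10 cells, with Ptprc in 0 and 0. Of 5 endothelial markers 2 were detected on each chip, Kdr in 14 and 21 cells and Esam in 9 and 6, with Pecam1 in 0 and 0, and of 6 fibroblast markers 0 and 1 were detected. Their part in the values of the licensing genes was not tested.

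**Figure D5:**
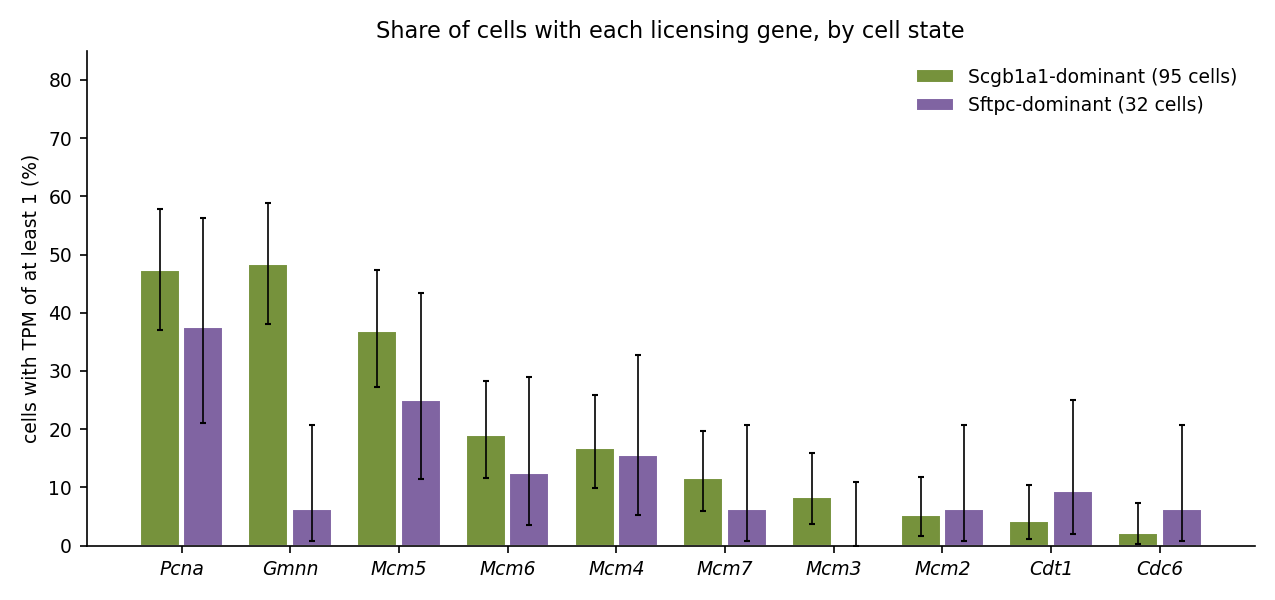
Percentage of cells with a TPM of at least 1 for each licensing gene in Scgb1a1-dominant cells (green, 95) and Sftpc-dominant cells (purple, 32) of both chips, with exact 95% intervals for counting error. Gmnn stands at 48.4% and 6.25%, while the intervals of the other 9 genes overlap between the states.

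The genes whose levels most resembled the licensing genes were listed by a fixed rule. Over the 6 bulk libraries these were Tmem109, Tmem242, Bcl10, Creg1 and Magoh, with Pearson's r to the mean standardised level of 0.972 to 0.994, chosen as the highest of 8544 genes, of which 61 exceeded 0.9. In single cells the 5 highest were Gm10053, Cycs (cytochrome c), Trp53i11, Nedd8 and Sec14l3, for which the smaller of the r values within the 2 chips was 0.34 to 0.39 (61 and 66 cells). None of these 10 was on a replication or mitotic list, and the single-cell values are too weak in such sparse data to be a finding.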

How the data were processed

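Bulk RNA from sorted cells and single cells from C1 chips were sequenced. For bulk, the authors deposited FPKM; the submitters' processing notes name Cufflinks, TopHat and Bowtie2 with build mm10. For single cells, the authors deposited TPM in 1 table per chip; the notes name RSEM (version 1.2.20), Bowtie (version 1.1.1) and build GRCm38. How Cufflinks normalized the libraries was not given in the sources used here. Neither unit carries read counts, so no count test was run and the depth is unknown.

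The bulk comparison used limma (version 3.58.1, R version 4.3.3) on log2(FPKM + 1), with a trended and robust eBayes step, two-sided p-values and Benjamini-Hochberg adjustment over 11957 genes. These genes reached an FPKM of 1 in 3 or more of the 6 libraries and had no marked entry in place of a value. Fold changes on this scale understate those of low genes. The fit was checked on simulated data. The labels do not tie libraries to separate animals, so the p-values reflect only the spread among these libraries, which may be technical. Intervals of differences are limma's.

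Single cells needed at least 1000 detected genes (TPM of 1 or more) and were kept without a control, debris or valve remark. Doublets were removed by inspection per the labels' protocols, and no doublet caller was run. Intervals are exact Clopper-Pearson at 95%, and a count of 0 is given the limit of 3 cells of the total. Cell numbers follow the order of deposit and pair nothing. Another 2 knockout samples had no matching column and are not analysed here. Single-cell tables were not normalized together.

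The licensing genes and the 5 lists set beside them were chosen with earlier results of these data known. Named are all 10 genes, Trp53, up to 4 genes of each list by smallest unadjusted p in bulk or most detected cells, and the 5 most similar genes per data type. Other genes, such as Rrm1, Rrm2, Mki67 and Foxj1 in single cells, and the cells described singly were named after their values were seen. Promoters came from RefSeq on GRCm38.p6, and gene positions from the bulk table. The bulk alternatives were other pseudocounts, filters, scalings, library weights and leaving out each library. Single-cell alternatives were other detection limits, depth ranges, rescaling without ERCC and another split by state. The range of 3000 to 4000 detected genes was added after seeing the data. Analysis used Python 3.11.15 with pandas 2.3.3, scipy 1.17.1 and matplotlib 3.10.9.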

Additional observations from a re-analysis of the deposited data

Results flagged for a closer look

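Wells outside the comparisons also held licensing genes, above the off-chip negative control, which had 0 of the 10 and 2 detected genes in all, at the TPM limit of 1. The off-chip positive control of the knockout chip had 8 of the 10, led by Gmnn at 65.2 TPM and Pcna at 11.7 TPM, among 7953 detected genes. Of the wells left out for a debris or valve remark, the 3 on the knockout chip had 1, 5 and 2 of the 10 genes, and the 1 on the wild-type chip had 1. The well with 5 held Pcna at 207 TPM, Gmnn at 154 TPM, Cdt1 at 43.6 TPM, Mcm2 at 6.66 TPM and Mcm6 at 3.6 TPM among 3486 detected genes, so that it would have counted among the cells with at least 5.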

How the results depend on the processing

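The licensing genes passed the bulk threshold under 0 of the 13 alternatives. The number of all genes past it was 1, and it was 2 with a pseudocount of 0.1, 0 with a pseudocount of 10, 3 without the filter, 6 with libraries scaled to the same sum, 913 with library weights, which gave wild-type replicate 1 the weight 0.236, and 1 to 408 when a library was left out. Trp53 passed with library weights (-1.22, limma adjusted p = 0.0064), and its difference was -1.25 to -1.03 when a library was left out, past the threshold only without wild-type replicate 1. Licensing genes with no overlap between genotypes numbered 0, 1 with scaled libraries, and 0 to 2 when a library was left out. The share over all genes was not computed under these alternatives, and fewer libraries separate more easily. These counts are therefore not read as a change. Differences near 0 changed sign: Mcm2 to -0.0033 with a pseudocount of 0.1, -0.022 with scaling and -0.051 with quantile normalization, Mcm5 to -0.014 with quantile normalization, and with library weights Mcm4 to -0.012, Mcm6 to 0.045 and Cdt1 to 0.025. Leaving out a library gave ranges of -0.15 to 0.14 for Mcm2, -0.36 to 0.082 for Mcm3, -0.082 to 0.15 for Mcm5, -0.080 to 0.042 for Mcm7, 0.030 to 0.27 for Pcna, 0.033 to 0.18 for Mcm4, -0.18 to -0.012 for Mcm6, -0.43 to 0.21 for Gmnn and -0.074 to 0.027 for Cdt1. The cause was not tested. No paired analysis was possible because the knockout and wild-type libraries share no replicate number and the cells carry none.

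In single cells, detection at any TPM above 0 gave at least 1 licensing gene in 95.1% of cells on the knockout chip and 97.0% on the wild-type chip, and at least 3 in 60.7% and 31.8%. A TPM of at least 10 gave at least 1 in 70.5% and 42.4%, at least 3 in 21.3% and 0%, and medians of 1 and 0 per cell. In cells with 3000 to 4000 detected genes, at least 3 were found in 18.5% of wild-type cells. Under the 6 alternatives that could change a share over a whole chip, shares were higher on the knockout chip in each for Mcm2, Mcm6, Mcm7, Pcna, Gmnn, Cdt1 and Cdc6, and not for Mcm3 in either depth range, Mcm4 in the narrower, and Mcm5 in the narrower and above a TPM of 0. The share over all genes was not computed under these alternatives. At the main setting 75.0% of genes seen in at least 4 cells were higher on the knockout chip. These directions are therefore not read as a result about the licensing genes. Chip, depth and genotype cannot be told apart.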
